A study of Homo sapiens with 6 samples.

Results

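The genes described here encode 37 proteins of the human kinetochore and of the spindle assembly checkpoint, taken by gene symbol from the 26255 rows measured in each library. They were read in HT29, a human cell line derived from a colorectal adenocarcinoma, after 24 h with YM155, a small molecule first described as a suppressor of survivin expression, or with DMSO, its solvent. Each treatment had 3 libraries of messenger RNA, and all libraries came from this one line. The labels do not give the dose of YM155, and they spell the compound YM115 in the sample names and YM155 in the treatment field. They call the samples triplicates without saying whether these were separate cultures, so p-values measure only the spread between these libraries, which may be technical.

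A kinetochore is built on each centromere when a cell prepares to divide. Its inner layer, the CENP proteins, sits on nucleosomes that carry the histone H3 variant CENP-A, and its outer layer holds microtubules through the NDC80 complex, which the MIS12 complex and KNL1 anchor. A kinetochore without microtubules recruits the checkpoint proteins TTK, BUB1, BUB3, BUB1B, MAD1L1 and MAD2L1, which hold back the anaphase-promoting complex until every chromosome is attached. Many genes of this machinery are transcribed mainly in G2 and mitosis in cycling cells.

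By layer, 14 genes belong to the inner kinetochore, 17 to the outer kinetochore and its fibrous corona, and 6 to the checkpoint. All 37 had a row in every library. A gene was tested when it reached 1 FPKM (fragments per kilobase of transcript relative to the size of the library) in at least 3 of the 6 libraries, which held for 36 genes. CENPP, a subunit of the CENP-O group, was the exception and read 0.741, 0.758 and 0.681 FPKM with YM155 and 0.675, 0.787 and 0.842 FPKM with DMSO. Of the 36, 35 were at or above 1 FPKM in all 6 libraries, and SPC24 was below it only in YM155 replicate 2.

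Promoter sequence is shown for the gene of each layer with the largest fall and the one with the largest rise. Genes of opposite response can be set side by side that way. Size was taken as the log2 fold change of log2(FPKM + 1), among genes that passed the test and had a window in RefSeq. By ratio of mean FPKM, BUB1B fell slightly more than MAD2L1, 2.72-fold against 2.66-fold. The genes shown were picked after their values were seen. Each window runs from 250 bases before to 50 bases after the start of transcription, 5′ to 3′ on the gene's strand, from RefSeq, assembly GRCh38.p14. Capitals mark 2 short elements known from promoters of genes expressed late in the cell cycle: the cell cycle homology region (CHR, searched as TTTGAA or TTCGAA, with TTCAAA as the reverse of TTTGAA) and the CCAAT box (CCAAT or its reverse ATTGG).
CENPA: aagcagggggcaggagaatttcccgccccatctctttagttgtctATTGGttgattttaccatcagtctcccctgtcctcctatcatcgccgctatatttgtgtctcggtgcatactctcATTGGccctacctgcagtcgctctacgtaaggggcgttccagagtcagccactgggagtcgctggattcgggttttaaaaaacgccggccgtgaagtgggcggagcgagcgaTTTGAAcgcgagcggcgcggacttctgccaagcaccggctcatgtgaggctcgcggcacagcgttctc
CENPN: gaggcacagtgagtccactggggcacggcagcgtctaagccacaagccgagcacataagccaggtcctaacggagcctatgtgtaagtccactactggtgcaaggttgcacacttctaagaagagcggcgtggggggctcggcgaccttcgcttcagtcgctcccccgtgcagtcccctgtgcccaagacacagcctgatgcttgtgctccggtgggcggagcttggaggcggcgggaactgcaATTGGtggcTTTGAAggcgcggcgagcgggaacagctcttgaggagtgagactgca
SKA2: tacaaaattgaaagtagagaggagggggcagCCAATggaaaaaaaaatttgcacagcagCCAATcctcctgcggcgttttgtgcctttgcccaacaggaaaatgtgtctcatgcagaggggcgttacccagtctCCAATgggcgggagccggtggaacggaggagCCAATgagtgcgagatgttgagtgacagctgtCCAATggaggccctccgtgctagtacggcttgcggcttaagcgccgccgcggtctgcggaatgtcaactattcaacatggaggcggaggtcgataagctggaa
SKA1: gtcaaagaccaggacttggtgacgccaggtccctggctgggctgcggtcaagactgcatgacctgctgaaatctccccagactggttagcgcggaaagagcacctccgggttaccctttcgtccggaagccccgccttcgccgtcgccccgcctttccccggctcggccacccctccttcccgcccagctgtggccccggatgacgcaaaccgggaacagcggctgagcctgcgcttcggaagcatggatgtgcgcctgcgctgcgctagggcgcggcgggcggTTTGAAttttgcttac
MAD2L1: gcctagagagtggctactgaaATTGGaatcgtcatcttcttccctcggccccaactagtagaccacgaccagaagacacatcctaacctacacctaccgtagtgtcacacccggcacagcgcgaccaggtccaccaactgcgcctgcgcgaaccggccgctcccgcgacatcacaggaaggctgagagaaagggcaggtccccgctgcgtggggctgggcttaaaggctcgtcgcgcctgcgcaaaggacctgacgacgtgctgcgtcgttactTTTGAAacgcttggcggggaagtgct
MAD1L1: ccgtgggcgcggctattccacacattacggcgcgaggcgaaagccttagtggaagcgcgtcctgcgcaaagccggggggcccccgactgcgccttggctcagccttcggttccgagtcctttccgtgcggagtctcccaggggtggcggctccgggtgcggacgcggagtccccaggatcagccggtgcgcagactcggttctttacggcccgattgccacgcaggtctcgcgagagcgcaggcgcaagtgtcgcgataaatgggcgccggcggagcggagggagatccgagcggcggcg
The windows lie at chr2:26785806-26786105 (plus strand) for CENPA, chr16:81006964-81007263 (plus strand) for CENPN, chr17:59155137-59155436 (minus strand) for SKA2, chr18:50374796-50375095 (plus strand) for SKA1, chr4:120066799-120067098 (minus strand) for MAD2L1 and chr7:2232896-2233195 (minus strand) for MAD1L1. CENPA and CENPN, which moved in opposite directions, each held 1 TTTGAA within 50 bases of the start. MAD2L1 and SKA1, likewise opposite in direction, each held 1 CHR match downstream of the start. The rise of SKA1 was small, 0.27 on the log2 scale, and its call was lost under several other settings, given below. SKA2 held 5 CCAAT matches and no CHR match, and the MAD1L1 window held neither.

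RefSeq gave 35 windows for 31 of the 37 genes, since some genes have several starts, and a gene was counted once where any of its windows held a match. Those not matched were CENPH, CENPL, CENPM, KNTC1, BUB3 and TTK. A CHR match was held by 16 of the 31 genes (51.6%), against 19.5% of all 27305 genes in the table and 14.8% of 8973 tested genes. These 8973 are the part of the 12035 tested genes whose symbol was found in RefSeq, and shares of tested genes below refer to them. Within 50 bases of the start it was held by 14 of the 31 (45.2%), against 6.24% of all genes and 4.77% of tested genes. A CCAAT match was found for 18 of 31 genes (58.1%), against 39.7% of all genes and 43.4% of tested genes. The 2 motifs shared no base in these windows. Among genes that fell after YM155, 12 of the 22 with a window held a CHR match, as did 2 of the 5 genes that rose, CENPN and SKA1, and 2 of the 4 with a window that did not pass or were not tested. By layer the counts were 5 of 11 for the inner kinetochore, 8 of 16 for the outer kinetochore and 3 of 4 for the checkpoint. A match is a description of letters, not of a bound site.

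Most of these transcripts were lower after YM155. Of the 36 tested, 27 (75%) fell, 5 rose and 4 did not pass (limma on log2(FPKM + 1), Benjamini-Hochberg adjusted p below 0.05 over 12035 genes). YM155 moved most genes in these libraries, so the background is high: 41.0% of all tested genes fell and 43.6% rose. A fall by at least 1 on the log2 scale was called for 17 of the 36, against 11.8% of all tested genes. The 1 FPKM added before the log makes the log2 fold change of a low gene smaller than the log2 of its fold. CENPI, 2.55-fold lower by means at a log2 fold change of -0.95, was therefore not among the 17. The median log2 fold change was -0.90 for the 36 genes and 0.02 for all tested genes. The 3 YM155 libraries did not overlap the 3 DMSO libraries for 33 of the 36, lower for 27 and higher for 6. That share is close to the background, since 85.9% of all tested genes had no overlap. Summed over all 37 genes, the level was 372.1 ± 1.32 FPKM with YM155 and 538.8 ± 10.4 FPKM with DMSO (SD, n = 3 each), a ratio of 0.691, while the sum over all tested genes had a ratio of 1.25. In bulk RNA, fewer cells in the stage that makes these transcripts and less transcript per cell cannot be told apart.

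**Figure D1:**
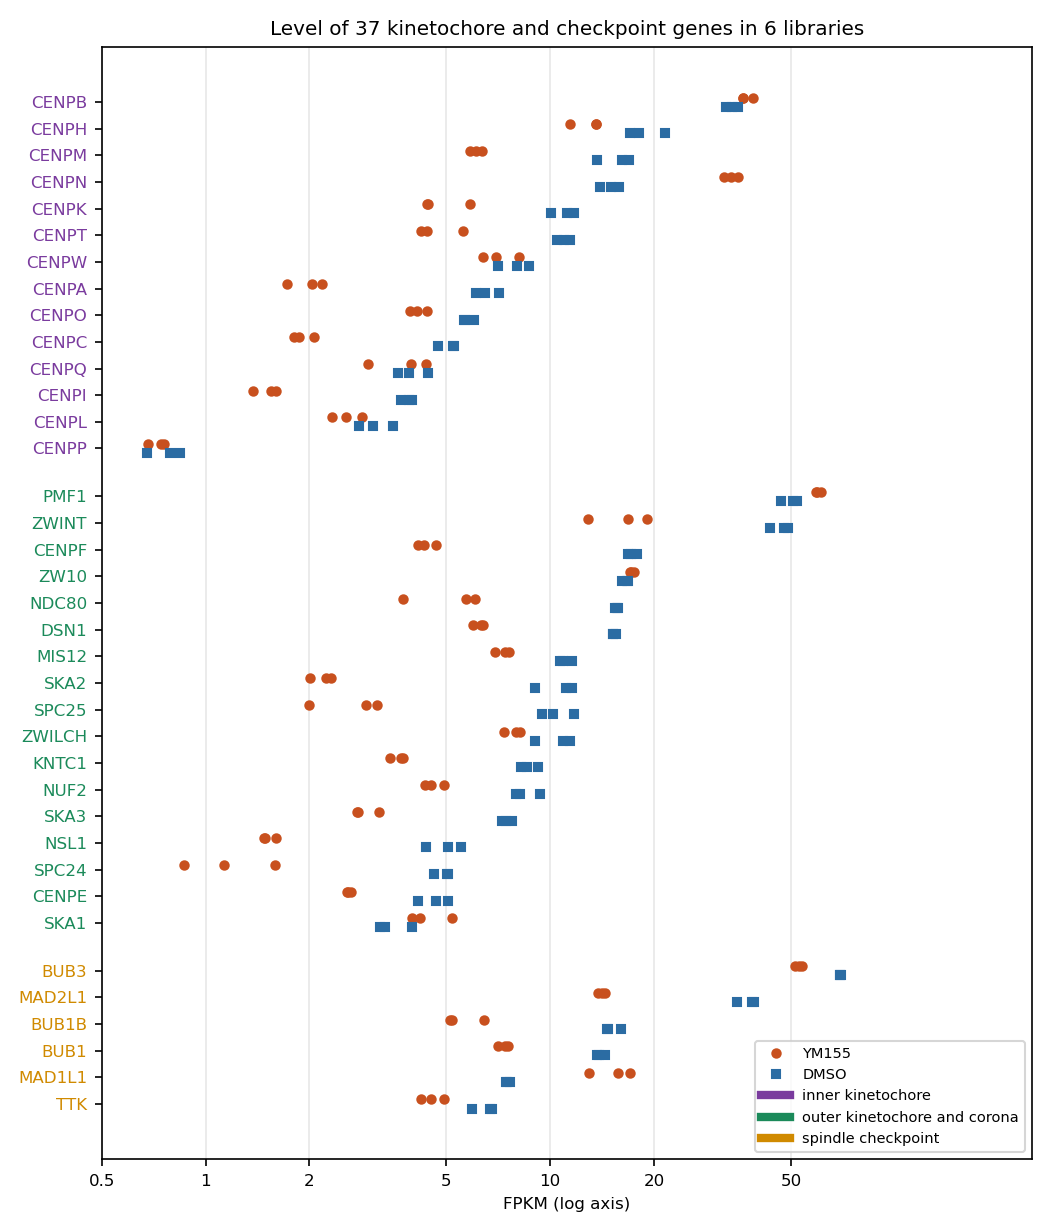
FPKM of the 37 genes (log axis) in each of the 3 YM155 libraries (orange circles) and the 3 DMSO libraries (blue squares), by layer and in order of the DMSO mean. For 27 of the 36 tested genes all YM155 libraries lie below all DMSO libraries, while CENPN and MAD1L1 lie clearly to the right with YM155.

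The level of these genes spanned a wide range per unit length. By mean FPKM, PMF1, BUB3, CENPB, CENPN and ZW10 were the 5 highest in YM155 cells, and BUB3, PMF1, ZWINT, MAD2L1 and CENPB were the 5 highest in DMSO cells. CENPN moved to rank 4 with YM155, against rank 13 with DMSO. MAD1L1 moved to rank 7 with YM155, against rank 24 with DMSO.

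Estimated depth and scale were not equal between the treatments. Steps between low FPKM values gave about 15.3 to 17.9 M effective reads for each YM155 library. Each DMSO library had about 24.4 to 27.3 M, so the counting error of a low value is expected to be larger with YM155. These estimates cannot tell sequencing depth from a scaling of the libraries, which is not given. The FPKM of all rows summed to 678699 to 696067 with YM155 and 538478 to 563296 with DMSO. Scaling each library by its upper quartile or to a common sum moved the median change of all tested genes to -0.28 or -0.26, against 0.02 as deposited. Under upper-quartile scaling 54.7% of all tested genes fell and 31.3% rose, and of the kinetochore and checkpoint genes 32 fell and 2 rose. Of 12 genes taken as markers of colorectal epithelium, 10 were tested, of which 7 rose, 2 fell and 1 did not pass. KRT8, the most abundant, had 3239 ± 172 FPKM with YM155 and 1962 ± 56.7 FPKM with DMSO, and KRT18 had 3006 ± 188 FPKM with YM155 and 1706 ± 68.2 FPKM with DMSO. CDX2 and VIL1 fell, CDX2 to 0.839 ± 0.144 FPKM with YM155, against 3.20 ± 0.456 FPKM with DMSO, and VIL1 to 22.3 ± 2.63 FPKM with YM155, against 38.6 ± 0.706 FPKM with DMSO, while CDX1 and GPA33 stayed below 1 FPKM in every library. CDX2 was below 1 FPKM in every YM155 library and passed the level filter only through the DMSO libraries. CDH17, counted among the 7 that rose, was below 1 FPKM in every DMSO library and passed only through the YM155 libraries. The summed level of the 12 markers was 9666 ± 448 FPKM with YM155 and 5861 ± 162 FPKM with DMSO, most of it from KRT8 and KRT18. No marker of fibroblasts (6 genes), endothelium (4 genes) or leukocytes (5 genes) passed the level filter, and their mean sums were at most 0.578 FPKM with YM155 and 1.03 FPKM with DMSO, both for leukocytes. What part depth or the epithelial marker level had in the results was not tested.

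The inner kinetochore was the most mixed layer. Of its 13 tested genes 8 fell (61.5%), 2 rose and 3 did not pass, with a median log2 fold change of -0.52. A fall by at least 1 was called for 5. Of all tested genes 41.0% fell, 43.6% rose and 11.8% fell by at least 1. Summed over its 14 genes the level was 122.9 ± 0.855 FPKM with YM155 and 142.1 ± 0.402 FPKM with DMSO, a ratio of 0.865. At the base of the layer, CENPA encodes the histone variant that marks the centromere. It read 2.18, 1.73 and 2.04 FPKM in the YM155 libraries, against 6.09, 6.49 and 7.12 FPKM in the DMSO libraries. Every YM155 library was well below every DMSO library. The mean level was 3.31-fold lower (1.98 ± 0.232 FPKM with YM155 and 6.57 ± 0.519 FPKM with DMSO; log2 fold change -1.34, SE 0.09, limma adjusted p = 5.6e-07). Only 5.04% of all tested genes had a lower log2 fold change.

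CENPB, which binds a short box in alpha-satellite DNA, was high in both treatments. Its level was 38.7, 36.3 and 36.4 FPKM with YM155 and 32.5, 35.0 and 33.7 FPKM with DMSO. The groups stood apart by a narrow gap of 1.30 FPKM. CENPB rose by 0.13 on the log2 scale (SE 0.05, limma adjusted p = 0.029), a call that reversed to -0.20, -0.24, -0.18 and -0.21 under loess, quantile, common-sum and upper-quartile scaling and was lost without the variance trend and without YM155 replicate 1, DMSO replicate 1 or DMSO replicate 3. CENPC, the scaffold that reaches to the MIS12 complex, read 1.81, 1.86 and 2.06 FPKM with YM155, against 5.25, 4.71 and 5.23 FPKM with DMSO. The 3 YM155 values lay close together and far below the DMSO values. Its mean was 2.65-fold lower (log2 fold change -1.06, SE 0.07, limma adjusted p = 1.0e-06).

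The 4 subunits of the CENP-H/I/K/M module, which joins the inner proteins into a network around the nucleosome, all fell, with a median log2 fold change of -0.99. CENPM had 6.07, 5.85 and 6.33 FPKM with YM155, against 16.9, 16.1 and 13.6 FPKM with DMSO. CENPM was lower in every YM155 library, 2.56-fold by means (log2 fold change -1.22, SE 0.08, limma adjusted p = 7.6e-07). CENPI averaged 1.51 ± 0.122 FPKM with YM155 and 3.85 ± 0.153 FPKM with DMSO (limma adjusted p = 2.0e-06). CENPK averaged 4.89 ± 0.839 FPKM with YM155 and 11.0 ± 0.865 FPKM with DMSO (limma adjusted p = 1.2e-05). CENPH changed least of the 4, at 12.9 ± 1.26 FPKM with YM155 and 18.9 ± 2.34 FPKM with DMSO (log2 fold change -0.52, limma adjusted p = 7.5e-04).

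CENPN, which together with CENPL contacts the CENP-A nucleosome, went the other way from CENPA. Its level was 31.9, 33.5 and 35.1 FPKM in the YM155 libraries, against 15.8, 15 and 13.99 FPKM in the DMSO libraries. All YM155 libraries were far above all DMSO libraries. CENPN rose 2.24-fold by means (33.5 ± 1.62 FPKM with YM155 and 14.9 ± 0.928 FPKM with DMSO; log2 fold change 1.11, SE 0.06, limma adjusted p = 2.1e-07), and the call held in each of the alternatives run. In RefSeq an antisense gene, CENPN-AS1, overlaps it, and whether strand was used in quantification is not given in the sources used here. CENPL read 2.33, 2.85 and 2.56 FPKM with YM155 and 3.07, 3.49 and 2.79 FPKM with DMSO. Its groups overlapped and it did not pass (log2 fold change -0.20, limma adjusted p = 0.063). Under upper-quartile and common-sum scaling CENPL was called lower, as were CENPQ and CENPW.

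CENPT and CENPW encode histone-fold partners, and CENPT also recruits NDC80 complexes. CENPT had 5.58, 4.22 and 4.40 FPKM with YM155, against 11.0, 11.4 and 10.5 FPKM with DMSO, and CENPT fell 2.31-fold by means without overlap (log2 fold change -1.07, SE 0.09, limma adjusted p = 4.3e-06). THAP11, whose locus overlaps CENPT, also fell, to 9.24 ± 0.140 FPKM with YM155, against 16.7 ± 0.330 FPKM with DMSO. NUTF2, which also overlaps CENPT and is more abundant, did not pass (121.1 ± 5.65 FPKM with YM155 and 112.6 ± 3.79 FPKM with DMSO, limma adjusted p = 0.070), and how reads were shared among the 3 genes is uncertain. CENPW averaged 7.16 ± 0.881 FPKM with YM155 and 7.91 ± 0.809 FPKM with DMSO, overlapped and did not pass (limma adjusted p = 0.24). In the CENP-O group, CENPO fell 1.39-fold (4.14 ± 0.240 FPKM with YM155 and 5.77 ± 0.199 FPKM with DMSO, limma adjusted p = 4.0e-04). CENPQ averaged 3.75 ± 0.720 FPKM with YM155 and 3.97 ± 0.410 FPKM with DMSO, overlapped and did not pass (limma adjusted p = 0.57).

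The outer kinetochore and corona had the lowest median of the 3 layers. Of 17 genes 14 fell (82.4%), 2 rose and 1 did not pass, with a median log2 fold change of -1.12. A fall by at least 1 was called for 10. The shares of all tested genes were 41.0% for falls, 43.6% for rises and 11.8% for falls by at least 1. Summed over the 17 genes the level was 149.9 ± 0.621 FPKM with YM155 and 246.6 ± 7.06 FPKM with DMSO, a ratio of 0.608. The NDC80 complex, a rod whose NDC80 and NUF2 end grips the microtubule and whose SPC24 and SPC25 end docks on the kinetochore, fell in all 4 subunits. The sum of its subunits was 13.6 ± 2.33 FPKM with YM155 and 39.5 ± 2.15 FPKM with DMSO.

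**Figure D2:**
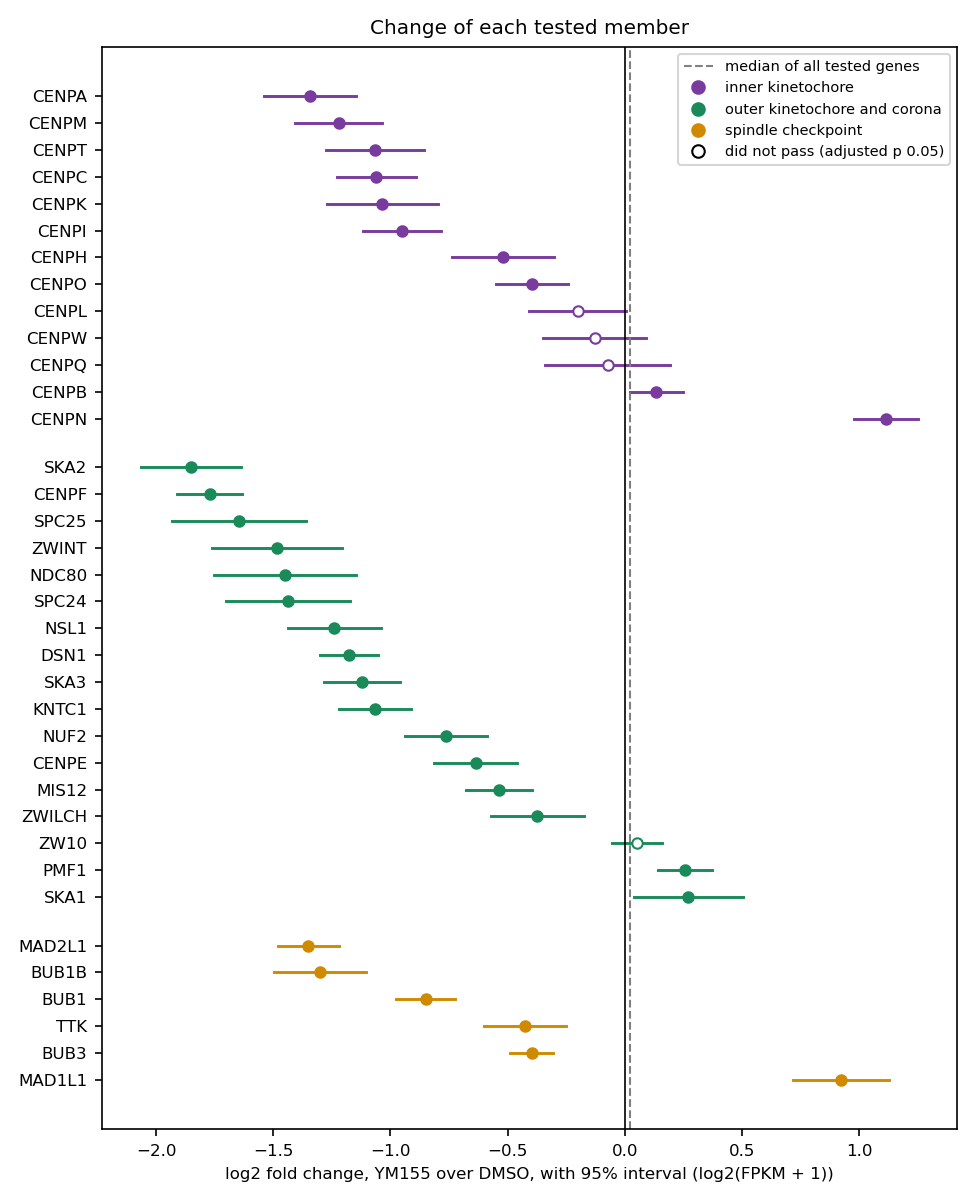
Log2 fold change of the 36 tested genes, YM155 over DMSO, from limma on log2(FPKM + 1), with 95% intervals and open circles for genes that did not pass. The values run from -1.85 for SKA2 to 1.11 for CENPN, and the dashed line is the median of all tested genes at 0.02.

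NDC80 itself read 5.71, 3.74 and 6.05 FPKM with YM155, against 15.8, 15.5 and 15.7 FPKM with DMSO. The DMSO values were nearly equal and the YM155 values spread more, with replicate 2 lowest. NDC80 was 3.02-fold lower by means (log2 fold change -1.45, SE 0.13, limma adjusted p = 6.5e-06). SPC25 read 2.91, 2.00 and 3.14 FPKM with YM155, against 10.2, 9.45 and 11.7 FPKM with DMSO. Again replicate 2 was the lowest YM155 library and the groups were far apart. SPC25 was 3.90-fold lower (log2 fold change -1.65, SE 0.13, limma adjusted p = 1.9e-06), with 2.102% of all tested genes lower in log2 fold change. SPC24 had 1.59, 0.865 and 1.13 FPKM with YM155, against 5.03, 4.61 and 5.06 FPKM with DMSO. It was 4.09-fold lower, from few reads in the YM155 libraries (log2 fold change -1.44, SE 0.12, limma adjusted p = 2.8e-06). NUF2 fell least of the complex, 1.85-fold (4.58 ± 0.300 FPKM with YM155 and 8.49 ± 0.740 FPKM with DMSO, limma adjusted p = 1.2e-05).

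Within the MIS12 complex, the link between inner and outer layers, 3 subunits fell and PMF1 stood apart. DSN1 had 5.98, 6.38 and 6.31 FPKM with YM155, against 15.2, 15.3 and 15.5 FPKM with DMSO. Replicates agreed closely in both treatments and DSN1 fell 2.46-fold (log2 fold change -1.18, SE 0.05, limma adjusted p = 7.4e-08). NSL1 fell 3.27-fold, to 1.52 ± 0.0694 FPKM with YM155, against 4.98 ± 0.592 FPKM with DMSO (limma adjusted p = 1.1e-06). MIS12 fell 1.51-fold, to 7.31 ± 0.342 FPKM with YM155, against 11.1 ± 0.470 FPKM with DMSO (limma adjusted p = 2.9e-05). PMF1 was the most abundant of the 4 and read 59.3, 59.0 and 61.0 FPKM with YM155, against 52.1, 50.8 and 46.7 FPKM with DMSO. PMF1 rose by 0.26 on the log2 scale without overlap (SE 0.05, limma adjusted p = 0.0010), a direction that turned to -0.084, -0.18, -0.059 and -0.085 under loess, quantile, common-sum and upper-quartile scaling. Under quantile scaling, and only there, PMF1 was called lower (limma adjusted p = 0.0083). Its readthrough partner PMF1-BGLAP had 1.00 ± 0.643 FPKM with YM155 and 1.48 ± 0.327 FPKM with DMSO, and the division of reads between the 2 rows is uncertain.

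ZWINT, a partner of KNL1 that helps dock the corona, read 16.8, 19.1 and 12.8 FPKM with YM155, against 49.1, 47.8 and 43.4 FPKM with DMSO. The YM155 libraries varied but none came near the DMSO range. ZWINT was 2.88-fold lower (16.3 ± 3.18 FPKM with YM155 and 46.8 ± 2.98 FPKM with DMSO; log2 fold change -1.49, SE 0.12, limma adjusted p = 3.0e-06).

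The SKA complex helps kinetochores hold on to shortening microtubules, and its 3 subunits did not move together. SKA2 had 2.24, 2.02 and 2.32 FPKM with YM155, against 11.6, 9.02 and 11.1 FPKM with DMSO. Its lowest DMSO library was still far above every YM155 library. SKA2 showed the largest fold difference of the 37 genes, 4.82-fold lower (log2 fold change -1.85, SE 0.09, limma adjusted p = 1.4e-07). SKA3 fell 2.58-fold, to 2.90 ± 0.245 FPKM with YM155, against 7.49 ± 0.252 FPKM with DMSO (limma adjusted p = 5.4e-07). SKA1 read 3.98, 5.17 and 4.19 FPKM with YM155 and 3.32, 3.22 and 3.98 FPKM with DMSO. The groups only just separated, with the lowest YM155 library next to the highest DMSO library. SKA1 rose by 0.27 on the log2 scale (SE 0.10, limma adjusted p = 0.033), a call lost without the level filter, with common-sum scaling and without YM155 replicate 2, DMSO replicate 1 or DMSO replicate 2, and its sign turned at -0.0063 under upper-quartile scaling.

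Among corona proteins, CENPF and CENPE both fell. CENPF, a large coiled-coil protein that accumulates in G2, had 4.65, 4.13 and 4.29 FPKM with YM155, against 17.8, 16.9 and 17.1 FPKM with DMSO. Replicates were tight and the groups far apart. CENPF was 3.96-fold lower (log2 fold change -1.77, SE 0.06, limma adjusted p = 1.3e-08), the smallest p among the 36 tested. CENPE, the kinesin that carries chromosomes toward the spindle equator, was 1.77-fold lower at 2.60 ± 0.0366 FPKM with YM155 and 4.62 ± 0.457 FPKM with DMSO (limma adjusted p = 4.7e-05). In the RZZ complex, which brings dynein to the kinetochore, KNTC1 fell 2.40-fold (3.62 ± 0.172 FPKM with YM155 and 8.68 ± 0.494 FPKM with DMSO, limma adjusted p = 5.6e-07). ZWILCH fell 1.34-fold (7.82 ± 0.438 FPKM with YM155 and 10.5 ± 1.25 FPKM with DMSO, limma adjusted p = 0.0031). ZW10, which also serves in membrane traffic between the Golgi and the endoplasmic reticulum, read 17.04, 17.18 and 17.49 FPKM with YM155 and 16.8, 16.2 and 16.8 FPKM with DMSO. ZW10 had no overlap but a difference too small to pass (log2 fold change 0.05, limma adjusted p = 0.32). Its call depended on scaling: it was called lower under loess, quantile, common-sum and upper-quartile scaling (-0.19, -0.20, -0.25 and -0.28).

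In the spindle checkpoint 5 of the 6 genes fell and MAD1L1 rose, with a median log2 fold change of -0.64. The layer is small, and 41.0% of all tested genes fell and 43.6% rose. Summed over the 6 genes the level was 99.3 ± 1.75 FPKM with YM155 and 150.1 ± 3.49 FPKM with DMSO. TTK, the kinase that starts the signal, fell 1.42-fold, to 4.55 ± 0.348 FPKM with YM155, against 6.46 ± 0.472 FPKM with DMSO (log2 fold change -0.43, limma adjusted p = 6.4e-04). BUB1, the kinase that marks centromeric chromatin and docks further checkpoint proteins, fell 1.91-fold, to 7.33 ± 0.254 FPKM with YM155, against 14 ± 0.374 FPKM with DMSO (limma adjusted p = 6.7e-07). BUB1B, known as BubR1, is part of the inhibitor that binds the anaphase-promoting complex. BUB1B had 6.44, 5.11 and 5.18 FPKM with YM155, against 16.1, 14.7 and 14.7 FPKM with DMSO. All YM155 libraries were below all DMSO libraries, 2.72-fold by means (log2 fold change -1.30, SE 0.09, limma adjusted p = 7.4e-07).

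BUB3, the partner that brings BUB1 and BUB1B to KNL1, was the most abundant gene of the checkpoint in both treatments. It read 51.2, 52.7 and 53.6 FPKM with YM155, against 69.7, 69.6 and 69.2 FPKM with DMSO. The groups did not overlap and BUB3 fell 1.32-fold (log2 fold change -0.40, SE 0.04, limma adjusted p = 1.1e-05).

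MAD2L1 and MAD1L1 encode binding partners: MAD1L1 holds MAD2L1 at the kinetochore, where free MAD2L1 is converted to the form that binds CDC20. MAD2L1 had 14.4, 14.1 and 13.7 FPKM with YM155, against 38.5, 34.8 and 39.2 FPKM with DMSO. MAD2L1 was 2.66-fold lower, without overlap (log2 fold change -1.35, SE 0.06, limma adjusted p = 4.3e-08). MAD1L1 read 17.1, 15.7 and 12.98 FPKM with YM155, against 7.49, 7.64 and 7.47 FPKM with DMSO. Every YM155 library was above every DMSO library, and the YM155 libraries spread more. MAD1L1 rose 2.02-fold (log2 fold change 0.92, SE 0.09, limma adjusted p = 9.9e-06), and the call held in each of the alternatives run. Non-coding genes overlap the MAD1L1 locus in RefSeq.

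**Figure D3:**
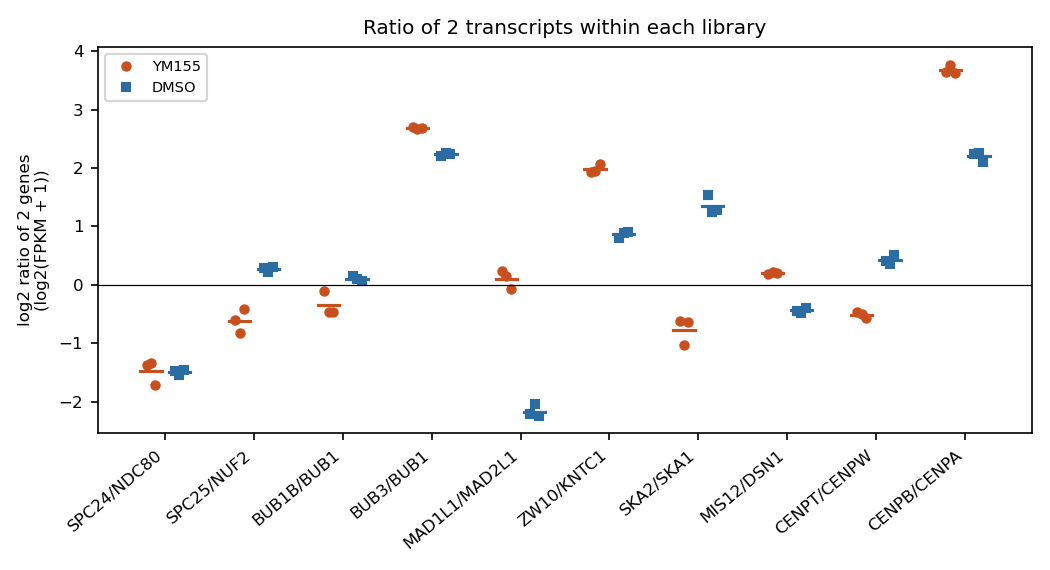
Log2 ratio of 10 pairs of transcripts within each library, as differences of log2(FPKM + 1); orange circles are YM155 libraries, blue squares DMSO libraries, and bars the group means. MAD1L1/MAD2L1 and SKA2/SKA1 moved most, with differences of 2.27 and -2.12, and SPC24/NDC80 overlapped.

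Ratios within a library do not depend on its scale, apart from the pseudocount, and were taken for 10 pairs of partners. They were not adjusted for abundance, on which change depended across all genes, as given below. In the abundance classes of CENPB and CENPA, for example, the median log2 fold changes of all tested genes were 0.37 and -0.25. The ratio of MAD1L1 to MAD2L1 was 1.19, 1.11 and 0.946 in FPKM with YM155, against 0.194, 0.220 and 0.191 with DMSO. The partners were at nearly equal levels with YM155, while MAD2L1 was in clear excess with DMSO. SKA2 over SKA1 was 0.563, 0.390 and 0.553 with YM155, against 3.49, 2.81 and 2.79 with DMSO, so the order of these partners was inverted. SPC25 over NUF2 averaged 0.584 ± 0.118 with YM155 and 1.23 ± 0.0403 with DMSO, and CENPT over CENPW averaged 0.659 ± 0.0280 with YM155 and 1.39 ± 0.0867 with DMSO. CENPB over CENPA averaged 18.9 ± 1.85 with YM155 and 5.15 ± 0.364 with DMSO, and BUB1B over BUB1 averaged 0.764 ± 0.131 with YM155 and 1.08 ± 0.0324 with DMSO. On the log2(FPKM + 1) scale 9 of the 10 pairs had no overlap between treatments, each with p = 0.1 in an exact two-sided permutation test over the samples (0.111 after Benjamini-Hochberg adjustment over the 10 pairs). That is the smallest p that 3 libraries against 3 allow, so no pair could pass. SPC24 over NDC80 was the exception, at -1.48 ± 0.211 with YM155 and -1.496 ± 0.0502 with DMSO on the log2 scale (exact permutation p = 1). In plain FPKM the ratio of SPC24 to NDC80 was 0.279, 0.231 and 0.187 with YM155, against 0.319, 0.298 and 0.323 with DMSO, without overlap. With a pseudocount of 0.1 its log2 difference was -0.38, so the pseudocount decides this pair, in which SPC24 is low.

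**Figure D4:**
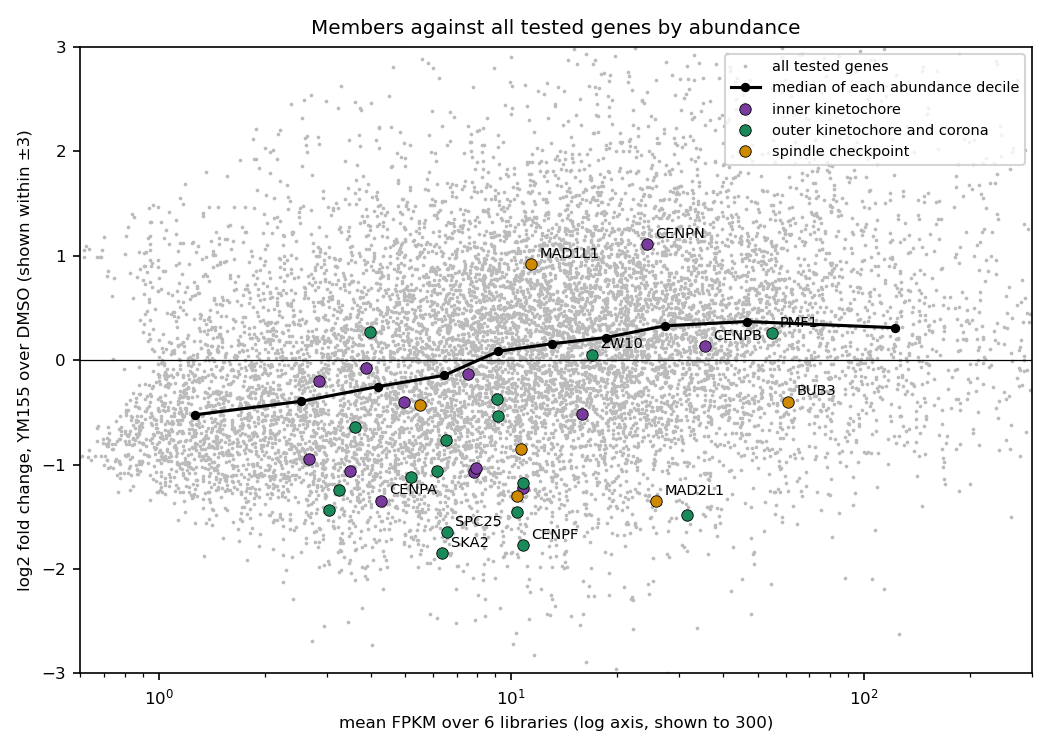
Log2 fold change, YM155 over DMSO, against the mean FPKM over the 6 libraries (log axis) for all tested genes (grey), with the black line joining the medians of 10 abundance classes and the 36 tested genes coloured by layer. Of the 36, 30 lie below the median of their class.

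Change after YM155 depended on abundance across all genes. The median log2 fold change of all tested genes was -0.52 in the lowest of 10 equal classes by mean FPKM and 0.31 in the highest. Each gene was therefore also set against the median of its own abundance class, and 30 of the 36 lay below it. The median difference over all 36 was -0.79. Of the 5 genes called as rises, CENPB and PMF1 lay below, by -0.24 and -0.11. CENPN, SKA1 and MAD1L1 lay above, as did CENPL, CENPQ and CENPW, which did not pass. By layer, 9 of 13 inner, 16 of 17 outer and 5 of 6 checkpoint genes lay below. The median differences over all tested genes of these layers were -0.56, -0.87 and -0.85. The class from 7.72 to 11.0 FPKM held 10 of these genes, with a median of -1.12, and all 10 were below the median of the class, 0.09.

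**Figure D5:**
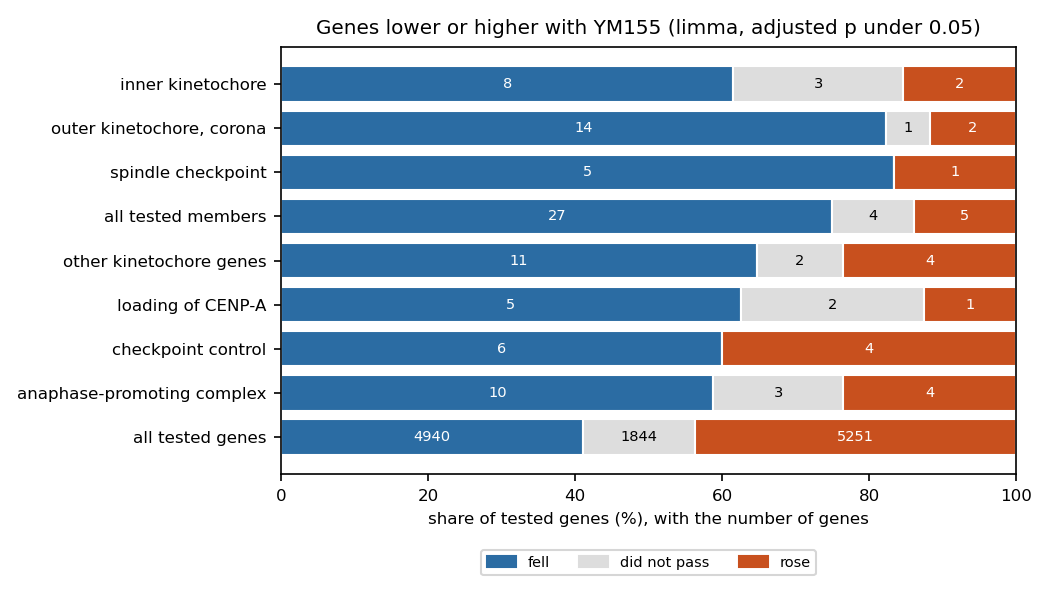
Share of tested genes (percent, with the number of genes written in each segment) that fell, did not pass or rose after YM155 in limma. Of the kinetochore and checkpoint genes 27 of 36 fell, and of all tested genes 4940 of 12035 fell.

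Other genes of the same pathway were read from lists of kinetochore, CENP-A loading, checkpoint control and anaphase-promoting complex genes. Of 17 other kinetochore genes 11 fell, 4 rose and 2 did not pass, with a median log2 fold change of -0.60. The background for each list is that 41.0% of all tested genes fell and 43.6% rose. CENPU, a subunit of the CENP-O group, read 5.22, 5.68 and 4.97 FPKM with YM155, against 13.9, 12.01 and 13.5 FPKM with DMSO, 2.48-fold lower without overlap (limma adjusted p = 5.7e-07). SPAG5, a spindle and kinetochore protein, fell 2.19-fold, to 7.57 ± 0.245 FPKM with YM155, against 16.6 ± 0.709 FPKM with DMSO (limma adjusted p = 2.2e-07). NDEL1, a regulator of dynein, stood at 42.8 ± 0.172 FPKM with YM155 and 9.01 ± 0.528 FPKM with DMSO, a 4.75-fold rise (limma adjusted p = 2.0e-09). CLASP1, which acts on microtubule ends, had 10.2 ± 0.338 FPKM with YM155 and 10.5 ± 0.403 FPKM with DMSO and did not pass (limma adjusted p = 0.55). KNL1, the outer scaffold named above and picked after its values were seen, is listed under its older symbol CASC5 and read 1.36, 1.83 and 1.95 FPKM with YM155, against 3.21, 2.85 and 3.17 FPKM with DMSO, a fall of 1.80-fold.

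Loading of CENP-A had 5 falls, 1 rise and 2 genes that did not pass among 8, while 41.0% of all tested genes fell and 43.6% rose. HJURP, the chaperone that places CENP-A on centromeres, had 3.59, 2.93 and 3.05 FPKM with YM155, against 14.1, 13.4 and 13.1 FPKM with DMSO. Like CENPA itself, it was low in every YM155 library, 4.25-fold by means (log2 fold change -1.80, limma adjusted p = 4.0e-08). The histone chaperones RBBP7 and RBBP4 fell, RBBP7 to 46.1 ± 2.07 FPKM with YM155, against 114.3 ± 4.40 FPKM with DMSO, and RBBP4 to 10.6 ± 0.498 FPKM with YM155, against 28.3 ± 0.288 FPKM with DMSO (limma adjusted p = 2.4e-08 and 2.6e-08). CENPV had 19.3 ± 0.672 FPKM with YM155 and 21.0 ± 1.53 FPKM with DMSO and did not pass (limma adjusted p = 0.10).

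Checkpoint control genes had 6 falls and 4 rises among the 10 tested of 12 listed. Among all tested genes 41.0% fell and 43.6% rose, so the share of rises, 40%, was near the background. TRIP13, the ATPase that takes apart the closed form of MAD2L1, fell 2.65-fold, to 7.83 ± 0.105 FPKM with YM155, against 20.8 ± 0.843 FPKM with DMSO (limma adjusted p = 3.7e-08). AURKB, the kinase that corrects faulty attachments, fell 2.19-fold, and PTTG1, the securin that is degraded at anaphase, fell 2.18-fold. Those that rose, picked for naming with their values known, were CDC20, the target of MAD2L1, MAD2L2, the MAD2L1 binding protein MAD2L1BP and the nuclear pore protein TPR, by 0.40, 0.51, 0.23 and 0.30 on the log2 scale. In the list of the anaphase-promoting complex 10 of 17 genes fell, 4 rose and 3 did not pass, with a median log2 fold change of -0.19. These 17 include genes that are not subunits: the coactivator FZR1 and the ubiquitin-conjugating enzyme UBE2S, which rose, and the ubiquitin-conjugating enzyme UBE2C, which fell. ANAPC13 fell most among the named subunits, 2.51-fold, to 12.96 ± 1.09 FPKM with YM155, against 32.5 ± 2.35 FPKM with DMSO (limma adjusted p = 3.2e-07), while ANAPC5 and CDC26 fell by 0.81 and 0.67 on the log2 scale. ANAPC4 did not pass (9.92 ± 0.616 FPKM with YM155 and 10.1 ± 0.300 FPKM with DMSO, limma adjusted p = 0.68).

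Of the 37 genes, 10 overlap a protein-coding gene in RefSeq, among them CENPM, CENPO, CENPP, CENPT, SPC25, MIS12, PMF1, ZWILCH and BUB1B. Their levels are uncertain as far as reads were shared with the neighbour. ADCY3, the neighbour of CENPO, fell, at 9.12 ± 0.646 FPKM with YM155, against 14.4 ± 0.446 FPKM with DMSO. NOSTRIN beside SPC25, at 12.5 ± 1.90 FPKM with YM155 and 11.8 ± 0.443 FPKM with DMSO, and DERL2 beside MIS12, at 5.75 ± 0.232 FPKM with YM155 and 5.48 ± 0.414 FPKM with DMSO, did not pass, while SPC25 and MIS12 fell.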

How the data were processed

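The authors deposited one table of FPKM values per library, named by gene symbol. Per the submitters' processing notes, Cufflinks 2.2.1 and Cuffdiff were used together with TopHat2 2.1.1, SAMtools 1.2 and Bowtie2 2.3.5.1 on build hg19. Per the labels' protocols, total RNA was taken with the RNeasy Micro kit and sequenced with TruSeq Stranded mRNA libraries. The sources used here give no settings, annotation, library scaling or use of strand, and FPKM holds no read counts.

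From the deposited FPKM, log2(FPKM + 1) was tested with limma 3.58.1 in R 4.3.3 (empirical Bayes with trend, two-sided, Benjamini-Hochberg, threshold 0.05) over 12035 genes at or above 1 FPKM in at least 3 of 6 libraries, and checked on simulated data. Folds are ratios of mean FPKM. Reads were not recovered, since only 60.1% to 66.5% of low values came within 0.1 of a whole read. Read depth was estimated with GENCODE release 29 and an assumed fragment length of 200 bases. Promoters and neighbours came from RefSeq.

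All 37 genes are named, and, from each pathway list, up to 3 genes with the lowest adjusted p and the most abundant that did not pass. The genes and lists were chosen with earlier results of these data known. Alternatives were other pseudocounts, filters, scalings, fits, a stricter threshold of 0.01, CENPE and CENPF placed in the inner layer, a replicate block and leaving out each library. Groups of 3 libraries were not screened for outlying samples. The values of 1 overlapping gene are not reported here.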

Additional observations from a re-analysis of the deposited data

How the results depend on the processing

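All 27 falls kept their call in each of the 18 settings refitted for every gene (with a mean FPKM of at least 5, the 20 still tested), as did the rises of CENPN and MAD1L1, and 29 of the 36 genes kept their call in all of them. The number of genes that rose, 5, became 3 under loess, 3 under quantile, 2 under common-sum and 2 under upper-quartile scaling and 3 at a threshold of 0.01, and lay between 3 and 5 with a library left out, lowest without DMSO replicate 1. With a mean FPKM of at least 5, 2922 of 8575 tested genes fell, against 4940. The median log2 fold change of all tested kinetochore and checkpoint genes was -0.76 (loess), -1.05 (pseudocount 0.1), -1.16 (common sum) and -1.18 (upper quartile). For the inner layer it was -0.62 (loess), -0.69 (quantile), -0.82 (common sum), -0.85 (upper quartile), -0.64 with CENPE and CENPF added, and -0.59 to -0.43 with a library left out. For the outer layer it was -0.95 (loess), -1.29 (pseudocount 0.1), -1.38 (common sum) and -1.41 (upper quartile). For the checkpoint it was -0.85 (loess), -0.71 (pseudocount 0.1), -0.91 (quantile), -0.93 (common sum) and -0.95 (upper quartile). Relative to the median of all tested genes under common-sum and upper-quartile scaling, the 36 genes stood at -0.90 in both. Signs that turned under loess, quantile, common-sum and upper-quartile scaling were those of CENPB (-0.20, -0.24, -0.18, -0.21), PMF1 (-0.084, -0.18, -0.059, -0.085) and ZW10 (-0.19, -0.20, -0.25, -0.28). CENPB and ZW10 were called lower under each of these scalings, and PMF1 only under quantile scaling. CENPL turned to 0.10 and 0.050 and CENPQ to 0.16 and 0.11 under loess and quantile scaling, and SKA1 to -0.0063 under upper-quartile scaling. Under upper-quartile and common-sum scaling falls were gained for CENPL (-0.46, -0.44), CENPQ (-0.35, -0.33) and CENPW (-0.44, -0.41), which with CENPB and ZW10 made 32 falls; CENPL also gained one without the variance trend (-0.20), without YM155 replicate 2 (-0.25) and without DMSO replicate 3 (-0.26). CENPQ ranged from -0.17 to 0.054 with a library left out, and the log2 ratio of SPC24 to NDC80, -0.38 with a pseudocount of 0.1, ranged from -0.053 to 0.14. Beyond the construction of each alternative, the cause of these changes was not tested. Replicate numbers did not pair the samples (correlations of same-numbered libraries -0.071, -0.148 and -0.125); a fit with the replicate block gave 27 falls and 4 rises, without CENPB. The fewer effective reads estimated for YM155 libraries would limit the precision of genes near 1 FPKM, such as SPC24, NSL1 and CENPP. The SD of SPC24 was larger with YM155, at 0.367 FPKM against 0.253 FPKM with DMSO. It was smaller with YM155 for NSL1 (0.0694 against 0.592 FPKM) and CENPP (0.0405 against 0.0848 FPKM).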

Other observations

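Cohesin holds sister chromatids together and condensin compacts them. Of 17 genes of the 2 complexes and their regulators, 6 fell, 8 rose and 3 did not pass, with a median log2 fold change of 0.06, beside 41.0% of all tested genes that fell and 43.6% that rose. Counted apart, a division made with the values known, 5 of 8 condensin genes fell and 1 rose, while 1 of 9 cohesin genes fell and 7 rose; the difference between the 2 was not tested. STAG2, a cohesin subunit, read 57.5, 64.1 and 62.8 FPKM with YM155, against 31.7, 28.8 and 31.5 FPKM with DMSO, a 2.01-fold rise without overlap (limma adjusted p = 3.8e-07). The condensin subunits NCAPD3 and NCAPD2 fell, NCAPD3 to 9.28 ± 0.503 FPKM with YM155, against 21.3 ± 0.688 FPKM with DMSO, and NCAPD2 to 17.8 ± 0.387 FPKM with YM155, against 32.3 ± 0.842 FPKM with DMSO. CDCA5, known as sororin, had 29.2 ± 1.39 FPKM with YM155 and 27.9 ± 0.537 FPKM with DMSO and did not pass (limma adjusted p = 0.28).

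Among 17 tested regulators of cell cycle transcription, 10 fell, 6 rose and 1 did not pass, with a median log2 fold change of -0.43. The shares were 58.8% for falls and 35.3% for rises, beside 41.0% and 43.6% of all tested genes. E2F8, a repressor of the E2F family, read 0.881, 0.660 and 0.627 FPKM with YM155, against 5.22, 4.94 and 4.70 FPKM with DMSO. It was 6.86-fold lower, and the 1 FPKM added before the log made its log2 fold change only -1.79 (limma adjusted p = 8.2e-08). E2F8 reached 1 FPKM in no YM155 library, so it passed the level filter only through the 3 DMSO libraries. The same held for RBL1, named for this reason and also counted among the 10 falls. RBL1 had 0.867 ± 0.0331 FPKM with YM155 and 3.36 ± 0.337 FPKM with DMSO. RBL2, the pocket protein p130 of the DREAM complex, fell 2.86-fold, to 8.43 ± 0.770 FPKM with YM155, against 24.1 ± 0.794 FPKM with DMSO (limma adjusted p = 1.1e-07). RBBP4, another subunit of that complex, is given above with the CENP-A loading genes. E2F5 had 14.95 ± 0.494 FPKM with YM155 and 15.2 ± 1.04 FPKM with DMSO and did not pass (limma adjusted p = 0.76).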
